A study of Homo sapiens with 6 samples.

Results

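The 10 genes described here, MDM2, GDF15, BBC3, BAX, FAS, SESN1, SESN2, TP53I3, CCNG1 and GADD45A, are established transcriptional targets of p53 and were taken by symbol, leaving out CDKN1A, from a table of 28092 genes. All 10 were in the table and all 10 passed the filter on low counts. The cells were cardiomyocytes made from the human embryonic stem cell line H9, an established line, in 3 wild-type (WT-CMs) and 3 ADPRHL1 knockout (KO-CMs) samples, collected within 3 days of re-seeding. The study asked how loss of ADPRHL1, which encodes a heart-enriched pseudoenzyme of the ADP-ribosylhydrolase family, affects focal adhesions. The labels do not say how the knockout was made, from how many clones, or whether replicates were separate cultures. Each p-value therefore reflects spread among these 6 samples alone, and that spread may be technical.

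p53 is a transcription factor that is held at low levels by the ubiquitin ligase MDM2, itself a product of a p53 target gene, and that accumulates after DNA damage and other stresses. It binds a response element made of a pair of adjacent half-sites and switches on genes for cell cycle arrest, apoptosis, antioxidant defence and its own restraint. Several of these genes also answer to other factors: GDF15, SESN2, BBC3 and GADD45A are known targets of ATF4 or CHOP in the integrated stress response, and SESN1 is a known target of FOXO factors.

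Start-site windows of 300 bases (250 before and 50 after a start, RefSeq on GRCh38.p14) were matched by gene symbol for 9 of the 10 genes, 17 windows in all. No window was set on the outer start of the RefSeq span of FAS (88964050) or BBC3 (47232860), so not every start was searched. They were searched for the 20-base stretch that best matched the p53 consensus of 2 adjacent half-sites with no spacer; the consensus is its own reverse complement, so this covers both strands. Of 35116 such windows of all genes, 5.2% held a stretch matching at least 17 of the 20 bases and 0.649% one matching at least 18. Windows of 4 of the genes reached 17 or more, and these are printed 5′ to 3′ on the gene's strand because they show the letters p53 is known to recognise; capitals mark the best stretch.
FAS: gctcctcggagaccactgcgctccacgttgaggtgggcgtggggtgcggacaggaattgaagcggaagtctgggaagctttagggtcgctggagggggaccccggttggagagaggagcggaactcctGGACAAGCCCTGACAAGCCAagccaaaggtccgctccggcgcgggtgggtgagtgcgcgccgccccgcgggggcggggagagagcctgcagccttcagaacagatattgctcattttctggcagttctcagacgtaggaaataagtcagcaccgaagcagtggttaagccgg
MDM2: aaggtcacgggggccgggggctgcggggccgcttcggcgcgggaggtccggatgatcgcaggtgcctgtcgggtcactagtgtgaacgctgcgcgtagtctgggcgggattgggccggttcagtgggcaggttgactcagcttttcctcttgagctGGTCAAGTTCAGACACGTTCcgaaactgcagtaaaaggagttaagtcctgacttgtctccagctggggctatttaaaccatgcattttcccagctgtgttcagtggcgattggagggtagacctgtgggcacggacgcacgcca
SESN1: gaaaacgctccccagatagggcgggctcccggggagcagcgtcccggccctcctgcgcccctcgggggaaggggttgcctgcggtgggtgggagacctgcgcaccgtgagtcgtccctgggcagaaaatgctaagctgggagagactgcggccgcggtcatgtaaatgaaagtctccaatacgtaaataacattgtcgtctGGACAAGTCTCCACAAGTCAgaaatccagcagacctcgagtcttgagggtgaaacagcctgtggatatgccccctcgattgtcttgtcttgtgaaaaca
GDF15: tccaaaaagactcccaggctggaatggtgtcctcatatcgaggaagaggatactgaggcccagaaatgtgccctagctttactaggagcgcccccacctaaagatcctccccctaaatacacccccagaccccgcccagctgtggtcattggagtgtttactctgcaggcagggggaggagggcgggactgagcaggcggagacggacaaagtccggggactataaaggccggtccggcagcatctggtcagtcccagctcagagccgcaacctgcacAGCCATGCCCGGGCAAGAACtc
The FAS window (chr10:88991181-88991480, plus strand) and the MDM2 window (chr12:68808767-68809066, plus strand) matched 18 of 20 bases, and the SESN1 window (chr6:109008939-109009238, minus strand) and the GDF15 window (chr19:18385908-18386207, plus strand) matched 17. These windows belong to 2 genes that rose in knockout, FAS and GDF15, and 2 that did not pass the test, MDM2 and SESN1.

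The stretch of FAS (chr10:88991309-88991328) was intronic in 11 and exonic in 2 of the gene's 20 GENCODE transcripts. That of MDM2 (chr12:68808923-68808942) was intronic in 7 of 34 transcripts and exonic in 0; it lies before the gene's internal start, the promoter known to answer to p53. In SESN1 the stretch (chr6:109009018-109009037) was intronic in 2 of 7 transcripts and exonic in 0, and that of GDF15 (chr19:18386186-18386205) began 29 bases into the transcript and was exonic in 3 of 5. A perfect half-site stood in 2 of the 17 windows, those of FAS and SESN1 printed here, against 6.63% of all windows. The best stretch of BAX matched 16 bases, that of BBC3, SESN2 and TP53I3 15 and that of CCNG1 14, numbers reached by 25.98%, 70.5% and 97.4% of all windows.

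Other motifs were searched on both strands. TGATGNAA, the core of the element bound by ATF4 with C/EBP factors, was in 0 of the 17 windows and in 3.62% of all windows. GTAAACA, a forkhead motif, was in 1 window, that of GDF15 (3.42% of all), as was TATAAA (11.5% of all). TGANTCA, the AP-1 motif, was in windows of BBC3, FAS and MDM2 (7.71% of all), CATG, the centre of many p53 half-sites, in 5 windows of 4 genes (54.9% of all) and the GC box GGGCGG in 15 windows of 7 genes (45.0% of all). CATG can lie inside a p53 half-site. A match is a run of letters in these windows and not a measured binding site.

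Depth was 21179650 to 21405718 estimated counts per sample, so that 3 counts stand for about 0.140 CPM, a count scaled by library size with TMM factors. The targeted gene ADPRHL1 stood at 83.7, 79.6 and 79.4 CPM in wild type and at 6.38, 5.80 and 7.58 CPM in knockout, so each library had the level its label gives. All 15 cardiomyocyte markers were detected and all 15 fell, their summed level going from 18999 to 19198 CPM in wild type to 5136 to 5533 CPM in knockout. Of 12 fibroblast markers 9 rose and 3 fell (summed level 11472 to 11786 CPM in wild type, 16234 to 19336 CPM in knockout), and of 10 endothelial markers 8 rose and 1 fell (210.3 to 214 and 352 to 391 CPM). In other marker lists, 5 of 7 epicardial (1 fell), 6 of 8 endoderm (0 fell), 2 of 8 smooth muscle (6 fell), 1 of 8 epithelial (3 fell) and 3 of 5 tested haematopoietic markers (1 fell) rose, and 0 of 4 tested pluripotency markers rose (2 fell), while HBB stood at 0 in every library. The summed haematopoietic level went the other way, from 66.2 to 68.6 CPM in wild type to 47.8 to 55.1 CPM in knockout. The summed epicardial level overlapped between groups (84.6 to 90.4 CPM in wild type, 78.4 to 88.5 CPM in knockout). SOX17 is in both the endothelial and the endoderm list and counts as a riser in each. In these bulk samples fewer cells of a type and less RNA per cell cannot be told apart, and the part of these shifts in the results on p53 targets was not tested.

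The p53 targets did not move as one group. Of the 10 genes, 5 rose in knockout (GDF15, SESN2, FAS, BBC3 and BAX), 2 fell (TP53I3 and CCNG1) and 3 did not pass (MDM2, SESN1 and GADD45A), in edgeR's quasi-likelihood test at an adjusted p under 0.05. Among all 19558 genes tested, 28.4% were called higher and 28.6% lower by the same rule, or 57% in either direction, so the share of the 10 genes called lower was not above that of all genes, and 7 of 10 called in all is not far from it. The median log2 fold change, knockout minus wild type, was 0.24 over the 10 genes and 0.0011 over all genes; the median of its size without sign was 0.50 over the 10 genes and 0.38 over all. For 7 of the 10 genes, and for 64.5% of all genes, the range of the 3 knockout CPM values lay wholly outside that of the 3 wild-type values. Knockout lay above wild type for 5 of them (32.1% of all genes) and below for 2 (32.5% of all genes).

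**Figure D1:**
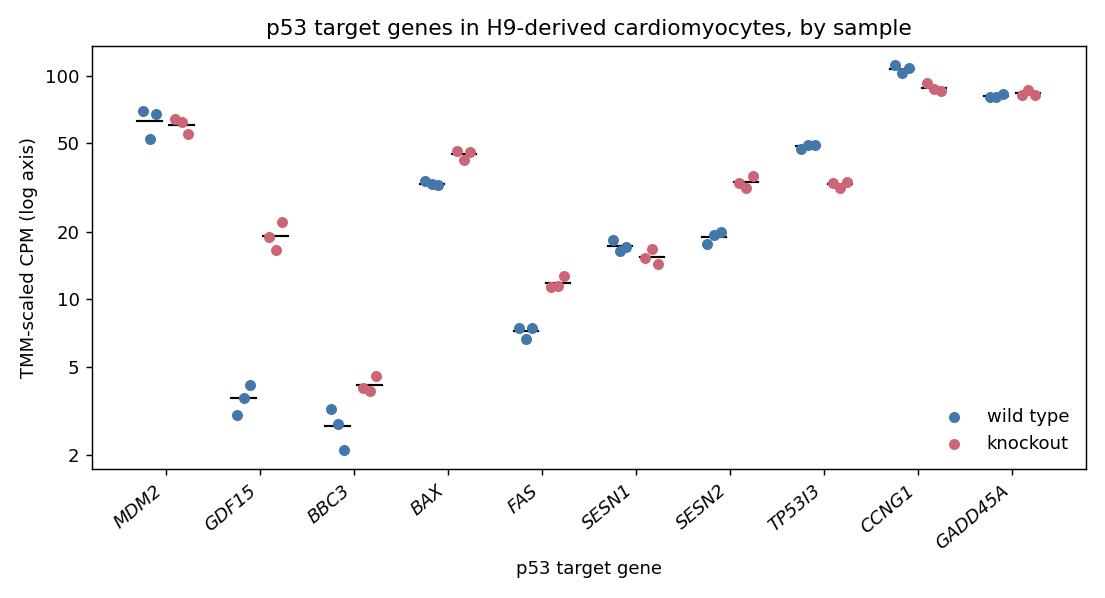
Level of each of the 10 p53 target genes in every sample, as TMM-scaled CPM on a log axis, with 1 point per sample (3 wild type, 3 knockout) and a line at each group mean. Knockout points lie above all wild-type points for GDF15, BBC3, BAX, FAS and SESN2, below them for TP53I3 and CCNG1, and overlap them for MDM2, SESN1 and GADD45A.

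MDM2, the ligase that marks p53 for destruction (Entrez 4193; chromosome 12, 68808172 to 68850686, plus strand; coordinates here and below are those of RefSeq on hg38), showed no change that passed the test. It stood at 69.1, 52.1 and 67.3 CPM in wild type and at 63.7, 62.0 and 54.9 CPM in knockout. The groups overlapped, with wild-type replicate 2 below all other samples. The log2 fold change was -0.062 (SE 0.114, adjusted p = 0.669 in edgeR). Without wild-type replicate 2 it was -0.19 and passed (adjusted p = 0.0492), while on log2(FPKM + 1) the difference was 0.028 (adjusted p = 0.807 in limma), so neither its direction nor its call was stable. MDM2 shares 785 exonic bases, 5.91% of its annotated exonic bases, with AC025423.4 on the opposite strand. It also shares 439 (3.31%) with the pseudogene AC025423.2 on its own strand and 133 with the carboxypeptidase gene CPM. The part of shared reads in the MDM2 value was not tested.

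GDF15, a secreted stress cytokine of the TGF-beta superfamily that is known to be released by the stressed heart, rose most (Entrez 9518; chromosome 19, 18386158 to 18389176, plus strand). Wild-type samples held 3.04, 3.63 and 4.14 CPM, knockout samples 19.04, 16.5 and 22.1 CPM. The lowest knockout sample was well above the highest wild-type sample. The rise was 5.34-fold, or 2.42 on the log2 scale with an SE of 0.142 (adjusted p = 2.39e-08 in edgeR), and 313 of the 19558 genes tested, or 1.60%, rose as much or more. In wild type this value rested on 64.4 to 87.7 estimated counts per sample and in knockout on 359 to 471.

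The GDF15 receptor gene GFRAL, known from the hindbrain, had 0 estimated counts in each wild-type sample and 1.03 to 2.09 in the knockout samples, under the floor of 3 counts. FURIN, a protease that can cleave the GDF15 precursor, rose from 154 ± 6.93 to 276 ± 28.4 CPM (SD, n = 3; log2 fold change 0.84, SE 0.0700, edgeR adjusted p = 1.58e-06). It was the 1 riser among 3 genes of GDF15 reception and processing tested, of which 0 fell and 2 did not pass. Of all genes tested 28.4% were called higher. The genes nearest to GDF15 in profile over the 6 samples, among 14427 compared, were GFPT2, SCARA3 and F2RL1, with root-mean-square differences of 0.091, 0.10 and 0.11 in centred log2 CPM. This measure takes in the difference between groups, and these genes rose by 2.26, 2.19 and 2.14 on the log2 scale. It does not show that they followed GDF15 from sample to sample within a group.

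Among the 10 genes, BAX, FAS and BBC3 act directly in cell death. Each of these 3 was called higher, as were 28.4% of all genes tested, and the call of BBC3 was lost in 5 of 19 alternatives. BAX, the effector that permeabilises the mitochondrial outer membrane (Entrez 581; chromosome 19, 48954875 to 48961798, plus strand), stood at 33.8, 32.7 and 32.3 CPM in wild type and at 45.9, 41.9 and 45.7 CPM in knockout. Its groups did not overlap, and the rise was 1.35-fold (log2 fold change 0.43, SE 0.0604, edgeR adjusted p = 5.73e-05). FAS, the death receptor (Entrez 355; chromosome 10, 88964050 to 89017059, plus strand), stood at 7.44, 6.67 and 7.47 CPM in wild type and at 11.3, 11.5 and 12.7 CPM in knockout. Every knockout sample was above every wild-type sample, by 1.64-fold on average (log2 fold change 0.72, SE 0.107, edgeR adjusted p = 1.06e-04).

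FAS shares 380 exonic bases, 8.94% of its annotated exonic bases, with ACTA2 on the opposite strand, and no source used here says whether the libraries kept strand. The smooth muscle actin gene ACTA2 had a mean of 1462 CPM in wild type against 749 CPM in knockout, so it moved the other way from FAS. The part of shared reads in the FAS value was not tested.

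BBC3 encodes PUMA, a BH3-only protein that frees BAX to act (Entrez 27113; chromosome 19, 47220824 to 47232860, minus strand). By mean FPKM it was the lowest of the 10 genes in both groups. It stood at 3.21, 2.78 and 2.12 CPM in wild type and 4.02, 3.87 and 4.56 CPM in knockout, or 45 to 68 and 84 to 97 estimated counts. The groups did not overlap, but wild-type replicate 3 was well below the other wild-type samples. The rise was 1.53-fold (log2 fold change 0.62, SE 0.192, edgeR adjusted p = 0.0157). This call ended without wild-type replicate 3 (adjusted p = 0.0709), without knockout replicate 3 (0.0623), in DESeq2 (0.0554) and on FPKM with no filter (0.0634).

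Partners of these proteins mostly rose or did not pass. Of 13 genes of the BCL-2 family 6 rose, 1 fell and 6 did not pass, with a median log2 fold change of 0.18. The shares of all genes were 28.4% called higher and 28.6% lower. PMAIP1, another BH3-only gene and p53 target, was the clearest riser, at 11.6, 12.3 and 12.4 CPM in wild type and 26.5, 25.4 and 28.0 CPM in knockout, 1.14 higher on the log2 scale (SE 0.0757, edgeR adjusted p = 7.58e-08). BID, which links death receptors to BAX, rose by 0.72 on the log2 scale. Among genes that restrain BAX, BCL2L1 rose as well, from 202 ± 7.75 to 252 ± 12.4 CPM (0.32, edgeR adjusted p = 2.27e-04), and MCL1 stood at 227 ± 6.81 and 239 ± 10.8 CPM (0.075, adjusted p = 0.215). The only faller was BIK (-0.56, adjusted p = 0.0455).

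Along the FAS pathway, the adaptor gene FADD stood at 16.8, 16.9 and 16.7 CPM in wild type and 32.5, 29.3 and 33.1 CPM in knockout, a rise of 0.91 on the log2 scale (SE 0.0719, edgeR adjusted p = 3.74e-07). CASP8, the initiator caspase gene, rose by 0.65 (adjusted p = 3.77e-04), and CFLAR, which encodes the caspase-8 inhibitor FLIP, fell from 119.5 ± 3.84 to 85.3 ± 4.27 CPM (-0.49, adjusted p = 6.52e-06). The ligand gene FASLG had 0 to 1 estimated counts per sample, under the floor of 3 counts. Of 9 genes of FAS signalling tested, 3 rose, 1 fell and 5 did not pass, so the share that rose was near the 28.4% of all genes (28.6% fell). TNFRSF10B, a related death receptor gene and p53 target, stood at 65.4 ± 3.14 and 82.0 ± 2.49 CPM and rose by 0.33 (SE 0.0531, adjusted p = 2.15e-04).

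The sestrins differed from each other. These stress-induced proteins hold back mTORC1 through the GATOR complexes, and SESN2 also binds leucine. SESN2 (Entrez 83667; chromosome 1, 28259518 to 28282491, plus strand) stood at 17.6, 19.4 and 20.1 CPM in wild type and at 32.9, 31.4 and 35.7 CPM in knockout. Its groups were well apart, and it rose 1.75-fold (log2 fold change 0.81, SE 0.0766, edgeR adjusted p = 2.01e-06). SESN1 (Entrez 27244; chromosome 6, 108984309 to 109094846, minus strand) stood at 18.4, 16.5 and 17.1 CPM in wild type and at 15.3, 16.8 and 14.4 CPM in knockout. Here the groups overlapped, through knockout replicate 2 and wild-type replicate 2, and the change did not pass (-0.16, SE 0.0865, edgeR adjusted p = 0.129). SESN1 shares 363 exonic bases, 7.09% of its annotated exonic bases, with AL390208.1 on the opposite strand. The part of shared reads in the SESN1 value was not tested.

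Within each sample the log2 ratio of SESN2 to SESN1 in FPKM, which accounts for length, was -0.13, 0.21 and 0.14 in wild type and 1.09, 0.95 and 1.29 in knockout. Both genes thus stood at similar levels per length in wild type and SESN2 at about double SESN1 in knockout, without overlap between groups. The difference between groups was 1.04 in FPKM and 0.97 in CPM (exact two-sided permutation p = 0.1, the smallest that 3 against 3 samples allow). SESN3, the remaining sestrin gene, rose by 0.18 (SE 0.0598, edgeR adjusted p = 0.0233), a call lost on leaving out wild-type replicate 1 or 2 (adjusted p 0.0930 and 0.119) or knockout replicate 3 (0.0852). Of 10 genes of the GATOR complexes and other sestrin partners 4 rose and 3 fell. For all genes the shares were 28.4% higher and 28.6% lower. The risers were led by the autophagy receptor gene SQSTM1 (1.14, edgeR adjusted p = 1.49e-09). The fallers included WDR59 (-0.20, edgeR adjusted p = 0.00834) and MIOS (-0.23, edgeR adjusted p = 0.0183), 2 subunits of GATOR2. On log2(FPKM + 1) neither fall passed in limma (adjusted p = 0.123 for WDR59 and 0.215 for MIOS).

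TP53I3, a quinone oxidoreductase gene linked to p53-driven oxidative stress, fell (Entrez 9540; chromosome 2, 24077433 to 24084834, minus strand). It stood at 47.0, 49.0 and 49.2 CPM in wild type and at 33.1, 31.5 and 33.5 CPM in knockout. All knockout samples were below all wild-type samples, by 1.48-fold on average (log2 fold change -0.57, SE 0.0566, edgeR adjusted p = 3.30e-06). It shares 80 exonic bases with FAM228B on the opposite strand, whose mean was 4.58 CPM in wild type against 5.16 CPM in knockout. Nearest to TP53I3 over the 6 samples were SEMA6D, POPDC3 and PRRG1, at root-mean-square differences of 0.019, 0.022 and 0.026 in centred log2 CPM. This measure too takes in the difference between groups, and these genes changed by -0.55, -0.60 and -0.53 on the log2 scale.

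Of the cell cycle genes, CCNG1, which encodes the atypical cyclin G1 that recruits a phosphatase to MDM2, also fell (Entrez 900; chromosome 5, 163437571 to 163457640, plus strand). It stood at 111, 102.5 and 108 CPM in wild type and at 92.6, 87.5 and 85.5 CPM in knockout. The groups did not overlap, and the fall was 1.21-fold (log2 fold change -0.28, SE 0.0523, edgeR adjusted p = 6.41e-04). GADD45A, a gene of growth arrest and DNA damage signalling (Entrez 1647; chromosome 1, 67685201 to 67688334, plus strand), stood at 80.5, 80.2 and 83.1 CPM in wild type and at 82.0, 86.4 and 81.7 CPM in knockout. These values overlapped and differed by 0.037 on the log2 scale (SE 0.0484, edgeR adjusted p = 0.539).

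Paralogues of both genes were measured as well. CCNG2 had means of 10.6 ± 0.778 and 11.9 ± 0.951 CPM in wild type and knockout (0.16, edgeR adjusted p = 0.206). GADD45B rose from 54.1 ± 2.89 to 80.5 ± 7.29 CPM (0.57, adjusted p = 1.67e-05), and GADD45G fell from 11.6 ± 0.705 to 6.59 ± 0.756 CPM (-0.82, adjusted p = 7.78e-05). Within samples the log2 CPM ratio of CCNG1 to CCNG2 was lower in knockout by 0.44 and that of GADD45A to GADD45B by 0.53, without overlap between groups. The FAS to TNFRSF10B ratio was higher in knockout by 0.39 and the MDM2 to MDM4 ratio by 0.21, also without overlap. The MDM2 to MDM4 difference was 0.11 without wild-type replicate 2, whose ratio was -0.31 against 0.00052 and 0.0046 in the other wild-type samples. The BBC3 to BAX ratio overlapped between groups (0.20, exact permutation p = 0.3). For each of the 5 pairs that did not overlap the exact two-sided permutation p was 0.1, or 0.12 after Benjamini-Hochberg adjustment over the 6 pairs.

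**Figure D2:**
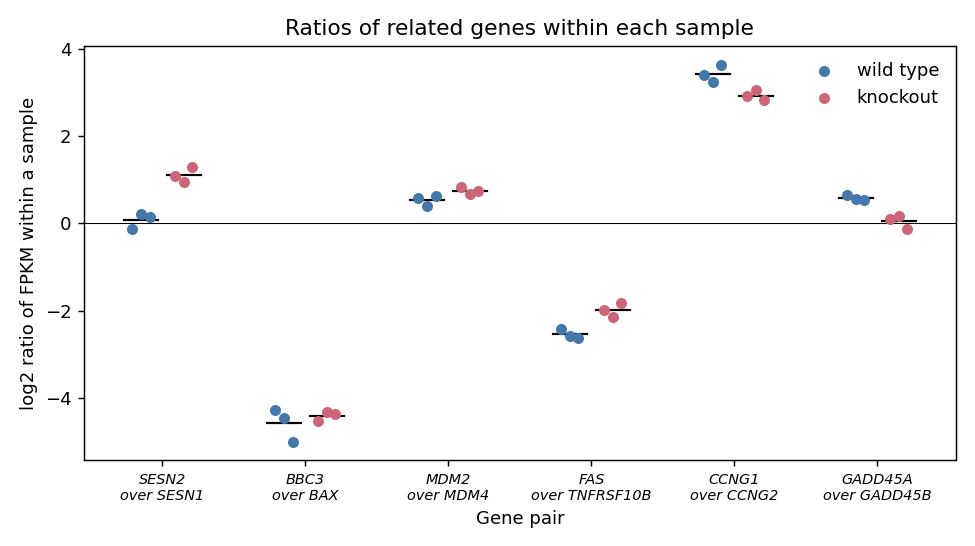
Log2 ratio of FPKM (estimated counts per length and depth) between related genes within each sample, with 1 point per sample and a line at each group mean. The SESN2 to SESN1 ratio lies between -0.13 and 0.21 in wild type and between 0.95 and 1.29 in knockout, and the BBC3 to BAX ratio overlaps between groups.

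Per length, GADD45A was the most abundant of the 10 genes in both groups, at 58.4 ± 1.38 FPKM in wild type and 60.6 ± 2.97 FPKM in knockout (SD, n = 3). In wild type it was followed by CCNG1 (44.3 ± 1.58), BAX (35.0 ± 0.976), TP53I3 (26.9 ± 0.703), MDM2 (9.43 ± 1.06), SESN2 (5.47 ± 0.393), SESN1 (5.20 ± 0.376), FAS (2.65 ± 0.0950), GDF15 (2.41 ± 0.370) and BBC3 (1.497 ± 0.389). SESN2 and SESN1 overlapped in that order, as did FAS and GDF15, and no other neighbours did. In knockout BAX (46.3 ± 2.12 FPKM) passed CCNG1 (36.8 ± 1.34), followed by TP53I3 (19.3 ± 1.29), and GDF15 (13.4 ± 1.65) moved from the ninth place to the fifth, above SESN2 (9.77 ± 0.314) and MDM2 (9.62 ± 0.777), which overlapped each other. FAS (4.98 ± 0.629) and SESN1 (4.53 ± 0.410) overlapped too, and BBC3 (2.17 ± 0.106) stayed last.

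The FPKM values gave the same calls with limma on log2(FPKM + 1) as the counts gave in edgeR, for all 10 genes, where 58.1% of the 14219 genes tested were called. The differences on that scale were 2.08 for GDF15, 0.74 for SESN2, 0.71 for FAS, 0.39 for BAX, 0.36 for BBC3, -0.26 for CCNG1 and -0.46 for TP53I3, and they understate the change of low genes. The transcript length implied by count and FPKM, which moves when long and short transcripts of a gene change in share, differed without overlap for 2 of the 10 genes and for 35.1% of 11511 genes with at least 100 counts and 1 FPKM in every sample. GDF15 and BBC3 had fewer than 100 counts in some samples and are not among those 11511 genes. For GDF15 it was 1485 ± 14.1 bases in wild type and 1437 ± 15.2 bases in knockout, and for BAX 934 ± 10.2 and 968 ± 8.91 bases (exact two-sided permutation p = 0.1 each, the smallest possible; 0.40 adjusted over 10 genes). MDM2, with its separate starts, stood at 6588 ± 254 and 6301 ± 36.3 bases, which overlapped.

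**Figure D3:**
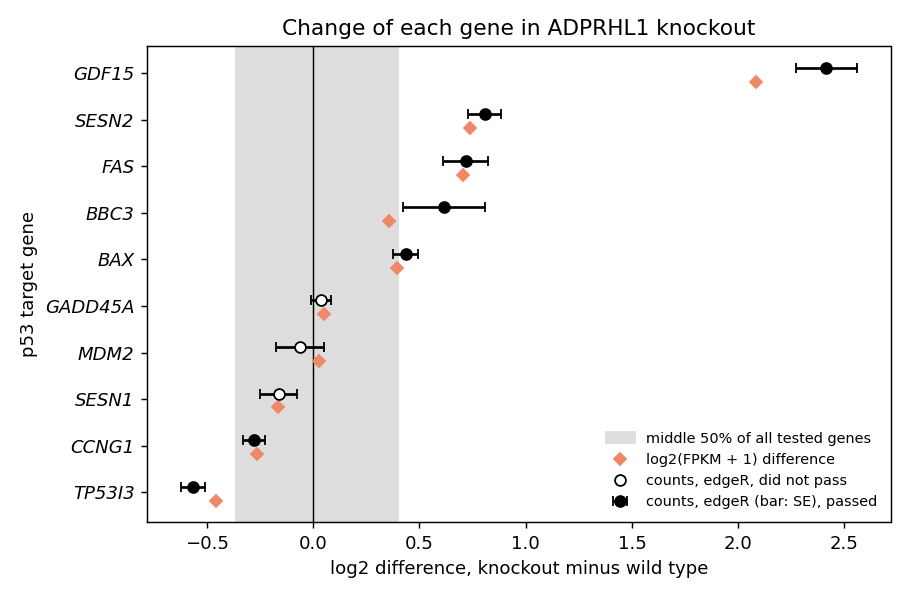
Change of each p53 target gene in knockout. Circles give the log2 fold change from counts in edgeR with its SE (filled, passed at an adjusted p under 0.05; open, did not pass), diamonds the difference in log2(FPKM + 1), and the grey band the middle 50% of all 19558 genes tested, from -0.36 to 0.40; GDF15 at 2.42 lies farthest out.

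Of 55 further targets tested, CDKN1A included, 26 rose, 13 fell and 16 did not pass, with a median of 0.18. Among all genes tested 28.4% were called higher and 28.6% lower, so the share of these targets that fell was not above that of all genes. The risers of smallest p were CDKN1A, the cell cycle inhibitor p21, and KITLG, the ligand of the KIT receptor. CDKN1A stood at 146, 154 and 147 CPM in wild type and at 410.2, 394 and 443 CPM in knockout, 1.48 higher on the log2 scale (SE 0.0540, edgeR adjusted p = 2.98e-10), and KITLG averaged 35.7 ± 1.08 and 81.3 ± 2.07 CPM. PERP, a desmosomal p53 target, fell from 96.7 ± 4.01 to 49.9 ± 2.25 CPM, and PANK1, a gene of coenzyme A synthesis, fell by 0.93. By role, 6 of 11 arrest genes rose and 3 fell, 7 of 14 death genes rose and 3 fell, 5 of 10 metabolic genes rose and 2 fell, 7 of 14 feedback and other genes rose and 4 fell, and 1 of 6 repair genes rose and 1 fell.

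RNA does not measure the level or activity of a protein, and no protein was analysed here. Of 14 genes of the p53 regulatory circuit tested, 3 rose, 6 fell and 5 did not pass (median -0.060). Beside these counts, 28.4% of all genes were called higher and 28.6% lower. MDM4, the inhibitory partner of MDM2, fell from 67.0 ± 2.16 to 55.7 ± 2.93 CPM (-0.27, SE 0.0556, adjusted p = 0.00136), a call that ended on FPKM (-0.16, adjusted p = 0.0969). TP53BP1 (-0.52, adjusted p = 7.64e-07) and the DNA damage kinase gene ATM (-0.59, adjusted p = 1.10e-05) fell, and CDKN2A, whose locus encodes the MDM2 inhibitor ARF as well as the CDK inhibitor p16, rose from 3.43 ± 0.571 to 10.97 ± 1.02 CPM (1.68, adjusted p = 1.01e-06). TP63 rose by 0.45 (adjusted p = 0.0268), a call lost in DESeq2 (adjusted p = 0.116), without any one wild-type sample (0.0914, 0.0627 and 0.0551 for replicates 1 to 3) and without knockout replicate 2 (0.0971), and its sign reversed on unfiltered FPKM (-0.39, adjusted p = 0.0137). PPM1D, a phosphatase gene that is both target and brake of p53, averaged 13.7 ± 1.78 and 14.3 ± 0.528 CPM (0.064, adjusted p = 0.613).

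The list of 30 integrated stress genes tested also holds genes of the unfolded protein response. Of these 30, 21 rose, 3 fell and 6 did not pass, with a median of 0.49. Among all genes tested 28.4% were called higher and 28.6% lower. The integrated stress response is another known route to GDF15, SESN2, BBC3 and GADD45A, of which GADD45A did not pass. Its part in the values of these genes was not tested. ATF4, the central factor of this response, stood at 261, 253 and 249.7 CPM in wild type and at 397, 377 and 390.1 CPM in knockout, 0.61 higher on the log2 scale (SE 0.0456, edgeR adjusted p = 2.29e-07). DDIT3, which encodes CHOP, stood at 21.6, 22.8 and 20.2 CPM and at 36.9, 32.9 and 29.6 CPM (0.62, SE 0.0861, adjusted p = 5.63e-05). The risers of smallest p were NUPR1 (2.67) and the cystine transporter gene SLC7A11 (1.19), and the fallers of smallest p VLDLR (-1.36) and PHGDH (-0.61), a gene of serine synthesis. ATF3 was lower by 0.21 with overlapping groups (adjusted p = 0.0488 in edgeR), a call lost in 14 of 19 alternatives. These included leaving out wild-type replicate 1 or 3 (0.153 and 0.103) or knockout replicate 1 or 2 (0.0859 and 0.160). The call was also lost with RLE factors (0.0514), in DESeq2 (0.132) and in limma on log2(FPKM + 1) (0.129). Of 14 FOXO genes and targets 6 rose, including FOXO1 (0.74) and TXNIP (0.43), and 5 fell, including TRIM63 (-1.38), a ubiquitin ligase gene of striated muscle, and SOD2 (-0.51). Cardiomyocyte markers fell 15 of 15 in the same samples, where 28.6% of all genes tested were called lower. The part of that shift in the values of these lists was not tested.

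**Figure D4:**
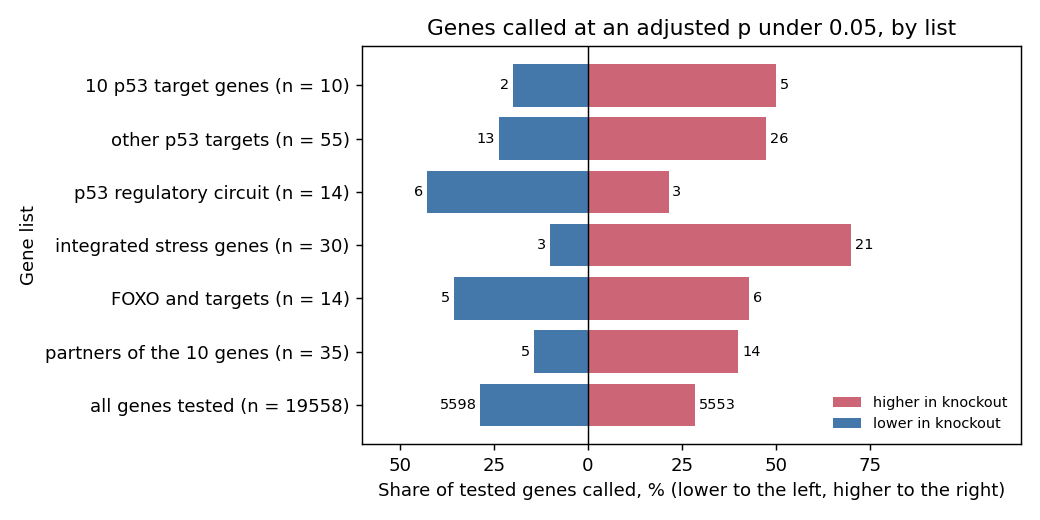
Share of the tested genes of each list called lower (left) or higher (right) in knockout at an adjusted p under 0.05 in edgeR, with the number of genes at each bar. The 10 p53 target genes had 5 higher and 2 lower, the 30 integrated stress genes 21 higher and 3 lower, and all 19558 genes 28.4% higher and 28.6% lower.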

How the data were processed

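Polyadenylated RNA was sequenced from 6 samples; per the labels' protocols, RNA was extracted with Trizol, selected with oligo-dT and copied with random primers. The submitters' processing notes list hg38; the aligner, counter and strand setting were not stated by the labels or headers. The deposited values were estimated counts per gene, by their header and because most were not whole, and expression values read as FPKM, since count, sample total and deposited value implied similar lengths for a gene across samples (median coefficient of variation 2.62% over 11511 genes, under 2% for 41.2% of them); the header does not name the unit. Symbols came from RefSeq by Entrez ID (23433 of 24137 matched). The 3955 unnamed gene models held 12.9 to 14.9% of counts and stayed in the main fit.

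Counts were rounded, filtered (filterByExpr, minimum count 10, total 15), scaled by TMM and tested for genotype with edgeR 4.0.16 (robust quasi-likelihood) in R 4.3.3, Benjamini-Hochberg adjusted over 19558 genes. SEs were derived from the F statistic. Fits were tested on simulated data. FPKM was tested as log2(FPKM + 1) with limma 3.58.1, for genes of at least 1 FPKM in 3 samples. Alternatives were other scalings, DESeq2 1.42.0, limma-voom, other filters and pseudocounts, a fold of 1.5, the replicate block and each sample left out. Within groups, pairs of samples had a chi-square of 3.37 to 6.81 times its degrees of freedom, more than counting noise gives; this does not tell separate cultures from repeat libraries of one RNA, and genes with overlapping or near-identical copies are uncertain in estimated counts. Intervals of counting error cover counting only. The genes and lists were chosen with earlier results of these data known. The text names the 10 genes, a fixed set of partners and regulators, in each list up to 2 genes per direction by smallest p, and for GDF15 and TP53I3, the largest riser and faller, the 3 genes nearest in profile; FURIN, BID, BIK, CASP8, MIOS and ACTA2 were named after their values were seen. A gene that this rule also names is not reported here.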

Additional observations from a re-analysis of the deposited data

How the results depend on the processing

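The calls of GDF15 and SESN2 held under all 19 alternatives, and those of BAX, FAS, TP53I3 and CCNG1 under all but the test against a fold of 1.5, which left 2 of the 10 genes called higher and 0 lower. That test also left 1872 and 1385 of all genes, 7 and 5 further p53 targets, 1 and 0 genes of the p53 regulatory circuit, 6 and 1 integrated stress genes, 1 and 1 FOXO genes and 4 and 0 partners called higher and lower. Leaving out a sample gave 4 to 5 of the 10 genes higher and 2 to 3 lower, 19 to 23 further targets higher, 1 to 3 circuit genes higher and 2 to 4 partners lower. Circuit genes called higher went from 3 to 1 in DESeq2, with no low-count filter and on FPKM with either pseudocount or without a filter. Partners called lower went from 5 to 3 with upper-quartile factors, total counts or a mean CPM of at least 1, and to 2 in DESeq2. The median over the 10 genes went from 0.24 to 0.27 with upper-quartile factors, 0.26 with total counts, 0.21 with no low-count filter and 0.20 on log2(FPKM + 1), filtered or not. Values that changed sign were MDM2 on log2(FPKM + 1) (0.028, filtered or not) and log2(FPKM + 0.1) (0.031), PPM1D on FPKM (-0.0071 with either pseudocount or no filter) and without wild-type replicate 2 (-0.0095; range -0.0095 to 0.16 over samples left out), TP63 on unfiltered FPKM (-0.39), and the implied length of SESN2 (-57.0 to 11.8 bases over samples left out). The causes were not tested.

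The replicate numbers gave no sign of pairing: deviations of same-numbered samples correlated at 0.011, 0.095 and -0.24 over 10840 genes. Differently numbered samples ranged from -0.32 (wild-type replicate 1, knockout replicate 2) to 0.283 (wild-type replicate 1, knockout replicate 3). Deviations taken from means of 3 samples cannot show that samples were not paired. With the replicate block 5 of the 10 genes were called higher and 2 lower, and partners called lower went from 5 to 3. At this depth FASLG and GFRAL were under the floor of 3 counts, and BBC3 rested on 45 to 97 estimated counts per sample.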
